A study of Mus musculus with 2 samples.

Results

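Acinar cells make up most of the exocrine pancreas, and 10 genes for the digestive enzymes they secrete are described here: Prss2, Try4, Try5, Cela1, Cela2a, Cela3b, Ctrb1, Cpa1, Cpb1 and Pnlip. They were taken by name and are 10 of the 32285 genes in the deposited tables. All 10 had counts in the vehicle library, and all 10 had at least 1 count in the takinib library when every barcode was summed. The data came from dissociated pancreatic tumours of KPPC mice, made into droplet single-cell libraries with a 10x Genomics method. KPPC is the labels' name for the mouse model, and they do not spell out its alleles or the Cre driver. Mice of both groups carried the KPPC genotype and were 6 weeks old, and dosing lasted 14 days. 1 library came from mice given vehicle, and 1 from mice given takinib, an inhibitor of the kinase TAK1, at 50 mg/kg. The number of mice behind each library is not stated. With 1 library a group there is no replicate check and no test, so every difference below is a difference between these libraries, and every interval covers counting error only.

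An acinar cell stores digestive enzymes as inactive precursors in granules and releases them into the duct. Trypsinogens (Prss2, Try4, Try5) become trypsin, which activates the other precursors. Chymotrypsinogen B (Ctrb1) and the elastases (Cela1, Cela2a, Cela3b) cut inside proteins, the carboxypeptidases (Cpa1, Cpb1) trim their ends, and pancreatic lipase (Pnlip) digests fat. In healthy acinar cells these transcripts are among the most abundant of any tissue, and a complex of PTF1A, an E-box partner and RBPJL drives many of them. During tumour formation in mouse models, acinar cells take on duct-like features and the enzyme programme declines. Because the messages are so abundant, RNA from broken acinar cells is also a familiar source of counts in droplets that hold other cells.

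The promoters of 3 members are given here: Prss2 and Ctrb1, which supplied most of the enzyme counts, and Cela1, whose pattern over cells differed from theirs. Each is a RefSeq window of 300 bases on assembly GRCm38.p6, from 250 bases before the annotated start to 50 after it. Each is printed 5′ to 3′ on the gene's strand, in lower case. Capitals mark 3 short motifs searched on both strands: the E-box CACCTG or CAGGTG, the RBPJ-type TGGGAA or TTCCCA, and the TATA-type TATAAA or TTTATA. The Prss2 window lies at chr6:41521526-41521825 on the plus strand, the Ctrb1 window at chr8:111690961-111691260 on the minus strand, and the Cela1 window at chr15:100687871-100688170 on the minus strand.
Prss2: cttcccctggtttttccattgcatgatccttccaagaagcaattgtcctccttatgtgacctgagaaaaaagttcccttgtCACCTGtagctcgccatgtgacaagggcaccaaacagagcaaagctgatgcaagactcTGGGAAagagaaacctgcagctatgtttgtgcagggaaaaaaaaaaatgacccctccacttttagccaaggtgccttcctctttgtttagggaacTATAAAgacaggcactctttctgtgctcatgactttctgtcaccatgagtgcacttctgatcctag
Ctrb1: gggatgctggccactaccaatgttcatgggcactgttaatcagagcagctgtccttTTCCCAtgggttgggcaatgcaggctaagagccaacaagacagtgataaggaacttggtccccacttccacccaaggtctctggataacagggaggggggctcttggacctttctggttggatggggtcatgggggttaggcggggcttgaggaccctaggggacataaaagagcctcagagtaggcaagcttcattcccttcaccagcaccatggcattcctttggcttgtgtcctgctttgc
Cela1: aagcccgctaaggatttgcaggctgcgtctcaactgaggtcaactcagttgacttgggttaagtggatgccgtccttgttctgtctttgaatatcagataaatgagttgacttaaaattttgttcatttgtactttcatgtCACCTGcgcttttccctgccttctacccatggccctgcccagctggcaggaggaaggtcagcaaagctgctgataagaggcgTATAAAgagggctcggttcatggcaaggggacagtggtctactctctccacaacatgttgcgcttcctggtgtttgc

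The Prss2 window held an E-box at -169, an RBPJ-type match at -111 and a TATA-type match at -16, each counted to the first base relative to the start. The Ctrb1 window held an RBPJ-type match at -194 and neither of the other motifs. In the Cela1 window an E-box stood at -109 and a TATA-type match at -27. Of the 9 members with a window in the RefSeq table, 6 held the E-box, against 20.2% of 32851 promoters of the same length. The RBPJ-type letters were in 5 of 9, against 25.6%, and the TATA-type letters in 5 of 9, against 13.6%. An E-box together with an RBPJ-type match was found in 2 of the 9, Prss2 and Cela2a, against 5.27% of all promoters. These are matches of letters, not binding sites. Try5 is named only.

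The trypsin genes share one stretch of chromosome 6 in the GENCODE release M21 annotation of GRCm38, where Try4 (6:41302269-41305532, plus strand), Try5 (6:41311233-41316841, minus strand) and Prss2 (6:41521787-41525079, plus strand) lie among other trypsinogen genes. Of the 90-base stretches of the Try4 transcripts, 35.3% also occur in Prss1, Try10 or Try5, and 26.3% of those of Try5 occur in Gm5771, Prss1 or Try4. Their separate values are therefore uncertain, whereas Prss2 shares none. Cela2a (4:141814962-141826160, minus strand) shares 13.5% with Ctrc, and Cela3b (4:137420999-137430540, minus strand) shares 8.50% with Cela3a. Cela1 (15:100674421-100687921, minus strand), Ctrb1 (8:111686519-111691010, minus strand), Cpa1 (6:30639218-30645363, plus strand), Cpb1 (3:20248264-20275733, minus strand) and Pnlip (19:58652498-58681788, plus strand) share none.

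The libraries were deposited in different forms, and this bears on every value that follows. The vehicle table held 704261 barcodes and 80850334 unique molecular identifiers (UMIs, each marking 1 captured transcript), with droplets down to 0 UMIs. The takinib table held 34158 barcodes and 139292875 UMIs, none below 500 UMIs. Cells were kept from 1000 UMIs and 500 genes upwards when mitochondrial UMIs did not exceed 20%, which left 9872 vehicle cells (median 3594.5 UMIs) and 26790 takinib cells (median 3049.5 UMIs). Levels are CPM, the counts of a gene scaled to the total UMIs of the cells summed; UMIs count molecules, so they are not divided by gene length. The vehicle library carried Y-linked transcripts without Xist in 3204 kept cells and Xist without Y-linked transcripts in 1120, and 4 of 4 Y-linked genes were lower in the takinib library, where no kept cell had a Y-linked UMI. Treatment and library cannot be told apart. The libraries shared 400 kept barcodes, of which 0 held at least 10 enzyme UMIs in both.

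Summed over kept cells, the 10 enzymes together stood at nearly the same level in both libraries, 387 CPM with vehicle and 344 CPM with takinib. The log2 ratio of takinib over vehicle, with 10 CPM added to each side, was -0.17 (95% counting interval -0.19 to -0.14). Without the 10 cells of each library richest in enzymes it was -1.67, and with every cell thinned to 1000 UMIs it was -1.09. None of the 9 members with at least 50 counts in a library passed a log2 ratio of 1 in either direction, where 2.58% of 15751 genes were higher in takinib and 3.47% were lower. The median log2 ratio was -0.12 over those 9 members, -0.10 over all 10, and -0.13 over all genes tested.

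Among the trypsins, Prss2 stood at 61.6 CPM with vehicle (2702 UMIs) and 32.7 CPM with takinib (4312 UMIs), a log2 ratio of -0.75 (-0.80 to -0.69). Try4 was at 4.81 CPM and 0.849 CPM, 5.67-fold higher with vehicle, although the added 10 CPM holds its log2 ratio to -0.45. Try5 was at 26.5 and 22.5 CPM, with a log2 ratio of -0.17 (-0.24 to -0.10). All 3 trypsins were thus higher in the vehicle library, by margins that ranged from small to several-fold.

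The elastases were closer together. Cela1 was at 28.8 CPM with vehicle and 33.7 CPM with takinib, a log2 ratio of 0.17 (0.11 to 0.24) that turned to -0.068 with cells thinned to 1000 UMIs. Cela2a was at 6.11 and 4.79 CPM (log2 ratio -0.12), and Cela3b at 4.19 and 3.99 CPM, where the interval of the log2 ratio (-0.09 to 0.05) includes 0. Ctrb1, the chymotrypsinogen, held most of the enzyme UMIs: 232 CPM with vehicle and 221 CPM with takinib, with a log2 ratio of -0.07 (-0.10 to -0.04) that turned to 0.11 with a mitochondrial limit of 10%. It supplied 60.1% of the enzyme UMIs of the vehicle's kept cells, ahead of Prss2 with 15.9%, Cela1 with 7.45% and Try5 with 6.85%.

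The carboxypeptidases went different ways. Cpa1, which trims large neutral residues, was at 16.6 CPM with vehicle and 21.1 CPM with takinib (log2 ratio 0.23, 0.15 to 0.30). Its direction rested on a few cells: the log2 ratio was -0.68 without the 10 richest cells of each library and -0.54 when thinned. Cpb1, which trims basic residues, was at 5.08 and 3.01 CPM (log2 ratio -0.21, -0.29 to -0.14). Pnlip was nearly absent: 19 UMIs in the vehicle's kept cells (0.433 CPM) and 0 in those of the takinib library, which makes it at least 19.0-fold higher with vehicle when 0 is set at the floor of 3 counts for that library. Of the 19 UMIs, 11 came from 1 cell.

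**Figure D1:**
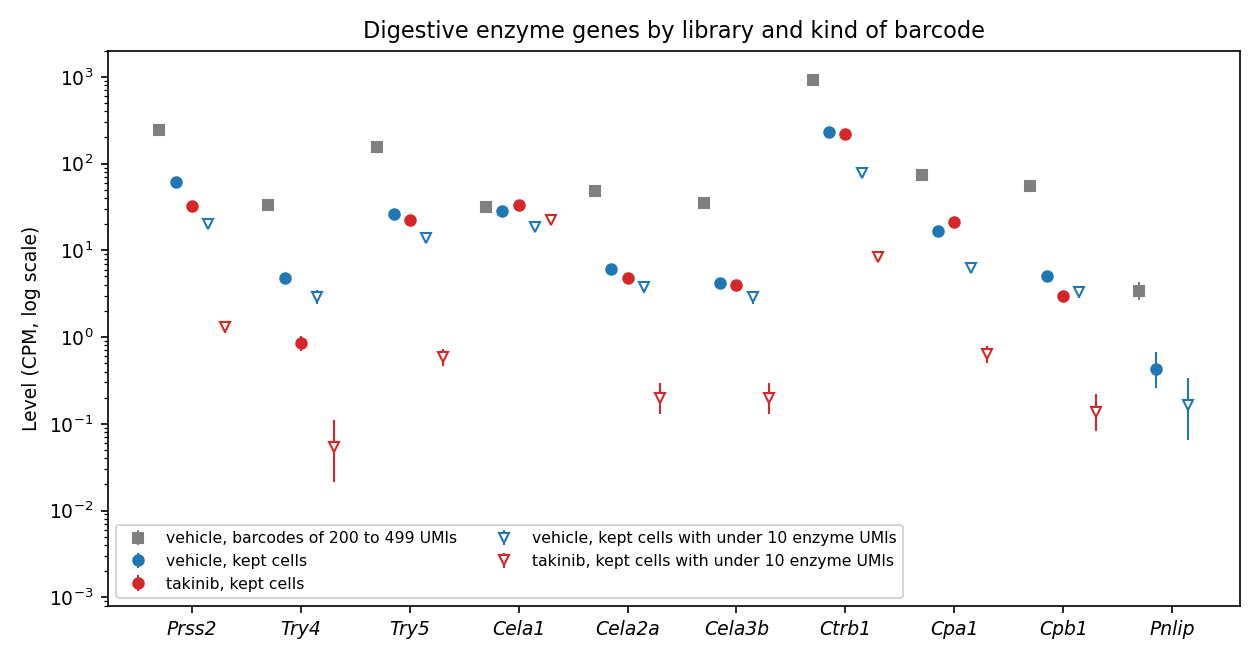
Level of each of the 10 enzymes in CPM of the cells or barcodes summed, on a log axis. Squares are vehicle barcodes from 200 to under 500 UMIs, circles are kept cells and triangles are kept cells with under 10 enzyme UMIs, blue for vehicle and red for takinib. Lines are exact 95% Poisson intervals. Circles of both colours lie close together for most genes, while red triangles lie below blue ones for each gene other than Cela1 and Pnlip. Pnlip had 0 UMIs in takinib kept cells and so has no red symbol.

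The sums changed when barcodes outside the kept cells were counted. Over all deposited barcodes the enzymes stood at 896 CPM with vehicle and 339 CPM with takinib (log2 ratio -1.38), and 6 of 10 members were past a log2 ratio of 1 on the lower side and 0 on the higher side, where 2.11% and 3.27% of 16116 genes were. Those 6 were Prss2 (137 and 32.1 CPM, -1.80), Try5 (83.1 and 21.8 CPM, -1.55), Cpb1 (26.9 and 2.94 CPM, -1.51), Try4 (16.0 and 0.847 CPM, -1.26), Cela2a (24.4 and 4.82 CPM, -1.21) and Ctrb1 (518 and 219 CPM, -1.20). Cela1, at 30.3 and 32.7 CPM, differed least (0.08). Only the vehicle table holds droplets under 500 UMIs, so this ratio compares unlike sets: when both tables were limited to barcodes from 500 UMIs upwards it was -0.86, and from 1000 UMIs -0.41.

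Within the vehicle library the droplets from 200 to under 500 UMIs were read as free RNA, meaning RNA outside intact cells; small cells and debris are not separated from it. This pool of 64517 barcodes held 48.6% of the library's enzyme UMIs, at 1599 CPM against 387 CPM in kept cells (log2 ratio of kept cells over free RNA -2.02). For 8 of 10 members the kept cells were past a log2 ratio of 1 on the lower side, against 0.467% of 14134 genes; 0 were past it on the higher side, against 9.97%. Ctrb1 was at 920 CPM in free RNA and 232 CPM in kept cells (-1.94), Prss2 at 244 and 61.6 CPM (-1.83), and Try5 at 154 and 26.5 CPM (-2.17). The 2 members not past it were Pnlip and Cela1. Pnlip was at 3.41 CPM in free RNA and 0.433 CPM in kept cells, 7.87-fold higher in free RNA, although the added 10 CPM holds its log2 ratio to -0.36. Cela1 was at 31.2 CPM in free RNA and 28.8 CPM in kept cells (-0.09), and 51.6% of its UMIs in the library were in kept cells, against 10.2% to 24.4% for the other 9. Of the enzyme UMIs of free RNA, Ctrb1 supplied 57.5% and Prss2 15.3%, close to their shares in kept cells, while Cela1 supplied 1.95%. Cpb1 supplied 3.49% of free RNA and 1.31% of kept cells, Cela2a 3.02% and 1.58%, and Cela3b 2.20% and 1.08%.

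The similar sums in kept cells hid a different spread over cells. With vehicle, 33.7% of kept cells (3324) held at least 1 enzyme UMI, and with takinib 11.0% (2945). Cells with at least 10 were 161 with vehicle (1.63%, exact binomial interval 1.39 to 1.90%) and 95 with takinib (0.355%, 0.287 to 0.433%), and they held 62.1% and 90.2% of the enzyme UMIs. Cells with at least 100 were 18 and 23, holding 43.3% and 86.4%. At least 1000 were found in 1 vehicle cell and 10 takinib cells. The 10 top cells alone held 35.0% with vehicle and 79.0% with takinib.

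**Figure D2:**
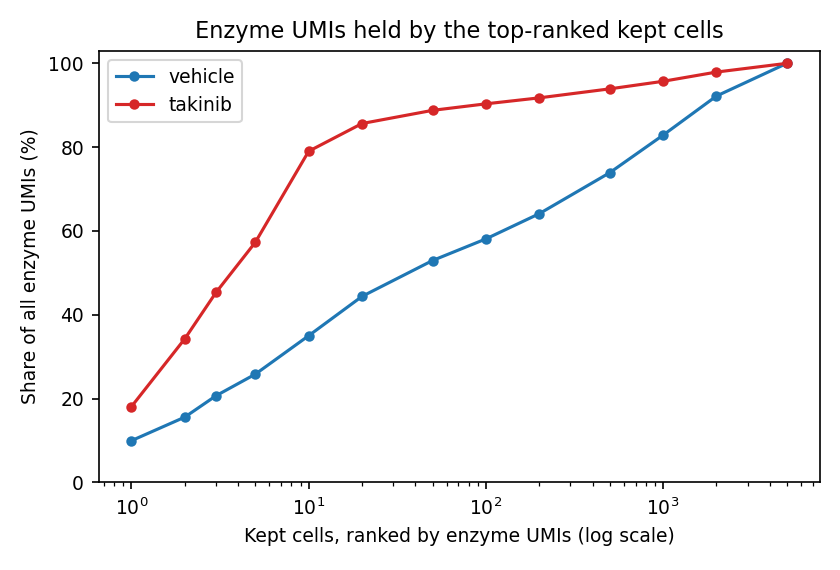
Share of all enzyme UMIs of the kept cells (%, vertical axis) held by the top-ranked cells (number of cells, log axis), vehicle in blue and takinib in red. The takinib line reaches 79.0% at 10 cells and 90.3% at 100, the vehicle line 35.0% and 58.1%.

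The members other than Cela1 and Pnlip followed this split. Of the Prss2 UMIs, 51.7% were in cells with at least 100 enzyme UMIs with vehicle and 95.3% with takinib. For Ctrb1 the values were 48.1% and 94.6%, for Cpa1 45.4% and 96.9%, and for Cpb1 14.8% and 95.2%. A UMI of Ctrb1 was found in 21.7% of vehicle cells and 3.72% of takinib cells, and a UMI of Prss2 in 8.37% and 0.664%. For Cela1, 10.7% and 8.70% of its UMIs were in cells with at least 100 enzyme UMIs, and 6.05% and 6.76% of cells had 1. Cela1 was therefore the 1 member whose share of positive cells was not lower in the takinib library.

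In kept cells with under 10 enzyme UMIs, 9711 with vehicle and 26695 with takinib, the libraries differed clearly: the enzymes summed to 149.5 CPM and 33.9 CPM (log2 ratio -1.86). Without Cela1 the sums were 131 and 11.5 CPM. Of 9 members tested, 3 were past a log2 ratio of 1 on the lower side, against 3.58% of 15708 genes: Ctrb1 (77.9 and 8.39 CPM, -2.26), Prss2 (19.9 and 1.32 CPM, -1.40) and Try5 (13.8 and 0.590 CPM, -1.17). The values of Cela1 were 18.7 and 22.4 CPM (0.18). This set is defined by the enzyme counts, so the sums describe it and test nothing. The vehicle library also had the free RNA described above, and its part in these low counts was not tested.

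The cells with at least 100 enzyme UMIs were few but rich. Their median enzyme count was 269.5 UMIs with vehicle and 595 with takinib, or 4.4% and 11.2% of all UMIs of the cell, with highest values of 17.4% and 55.6%. Ctrb1 was the leading enzyme, with a median of 74.9% of enzyme UMIs in both libraries, and the trypsins followed with 15.9% and 13.3%. The top vehicle cell held 953 Ctrb1, 446 Prss2, 187 Cpa1 and 89 Try5 UMIs among 15594. The top takinib cell held 4293 Ctrb1, 1607 Prss2, 1316 Try5 and 825 Cpa1 UMIs among 21681. The median number of members detected was 5.5 with vehicle and 8 with takinib. All 10 members were seen together in 1 cell, a vehicle cell of 3157 UMIs with 11 Pnlip UMIs.

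**Figure D3:**
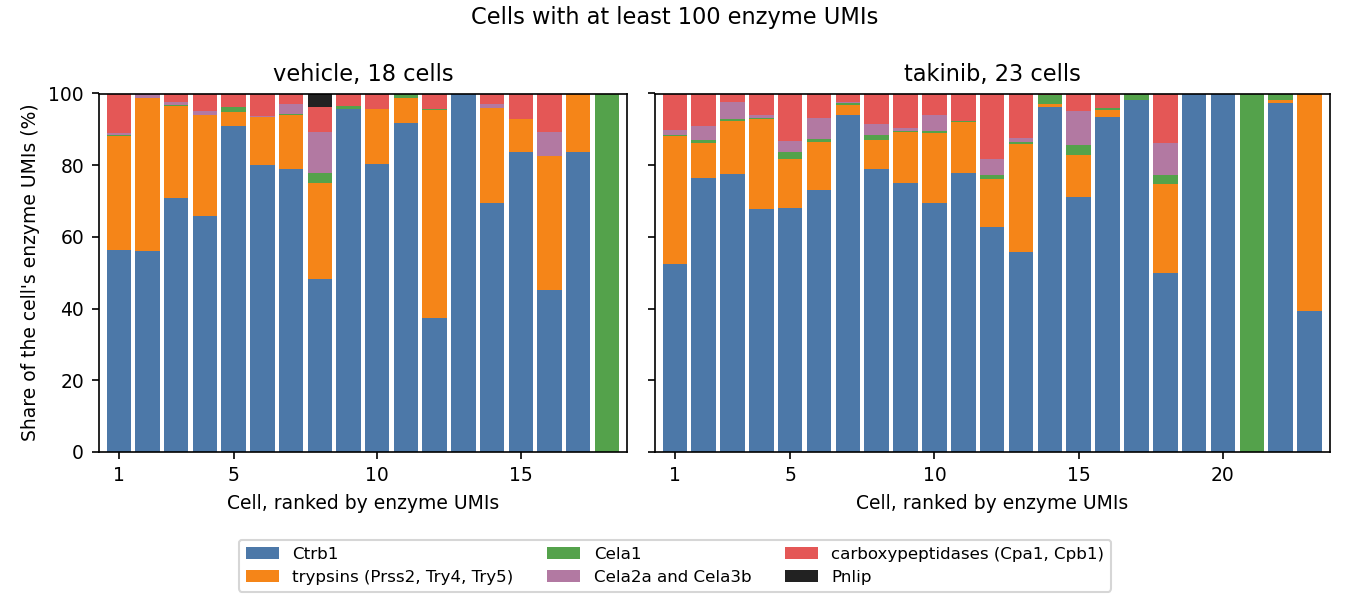
Make-up of the enzyme UMIs (% of the cell's enzyme UMIs, vertical axis) in each kept cell with at least 100 of them, ranked from the most to the fewest, for 18 vehicle cells and 23 takinib cells. Blue (Ctrb1) fills most bars and orange (trypsins) comes next; 1 cell in each library is all or nearly all green (Cela1), and several takinib cells are nearly all blue.

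These cells fell into 3 kinds, drawn after their values were seen. In 15 vehicle and 16 takinib cells Prss2 was at least 1% of the enzyme UMIs, and these are called enzyme-rich cells here. In 2 vehicle and 6 takinib cells nearly all enzyme UMIs were Ctrb1, and in 1 cell of each library they were Cela1. Enzyme-rich cells were compared with kept cells of the same library with under 10 enzyme UMIs; the members chose the cells, so only other genes are read. In the enzyme-rich cells the members summed to 55751 CPM with vehicle and 217537 CPM with takinib, as a description: Prss2 was at 11559 and 23430 CPM, Ctrb1 at 36629.5 and 152386 CPM, and Cpa1 at 2656 and 15364 CPM. Cela1 was at 207 and 1483 CPM.

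Other acinar secretory genes stood high in the same cells. Of the 28 on that list in the files, 13 had at least 50 counts in a vehicle pool, and 11 of these were past a log2 ratio of 1 on the higher side, where 5.39% of 14051 genes were. With takinib 17 of 18 were, where 3.89% of 15417 genes were. Cel, the bile-salt-dependent lipase, was at 3078 CPM in vehicle enzyme-rich cells against 6.38 in cells with under 10 enzyme UMIs, and at 7280 CPM against 0.360 with takinib. Clps, the cofactor of pancreatic lipase, was at 3227 CPM with vehicle and 14200 with takinib. Pnliprp1, a lipase-related protein, was at 1258 and 11176 CPM, Sycn, a zymogen granule protein, at 678 and 3514 CPM, and Gp2, the granule membrane protein, at 439 and 4861 CPM. The exceptions were Gatm in both libraries (57.9 CPM against 88.7 with vehicle, 62.8 against 38.6 with takinib) and Zg16 with vehicle (8 UMIs, 66.2 against 36.1 CPM).

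Amylase counts were few. The amylase genes on the list gave 3 UMIs in the vehicle's enzyme-rich cells (Amy2a1 2, Amy2a5 1) and 8 in those of the takinib library (Amy2a3 4, Amy1 3, Amy2a4 1). These counts are uncertain: 94.6% to 100% of the 90-base stretches of Amy2a1, Amy2a2, Amy2a3 and Amy2a4 and 45.6% of those of Amy2a5 also occur in another amylase gene, and Amy2b is not analysed here. Reads from such copies can be lost in counting, so the level of amylase in these cells cannot be read from them.

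Transcription factors of the acinar programme were present at low counts. Rbpjl, the acinar-specific PTF1 subunit, gave 41 UMIs in 7 of 15 vehicle cells (339 CPM) and 51 UMIs in 13 of 16 takinib cells (291 CPM), against 0.279 and 0.199 CPM in cells with under 10 enzyme UMIs. Ptf1a, the DNA-binding subunit, gave 3 and 6 UMIs, and Nr5a2, a nuclear receptor of acinar identity, was at 99.3 and 97.0 CPM. Bhlha15, which builds the secretory apparatus, gave 0 and 5 UMIs. With vehicle, Rbpjl, Ptf1a and Bhlha15 had under 50 counts in each pool and were not tested. Of the 4 factors tested there, Nr5a2, Gata4, Foxp2 and Xbp1, 3 were past the threshold. With takinib 5 of 6 were, Ptf1a not being tested, and Gata4 and Bhlha15 passed on 4 and 5 UMIs. Foxp2 was the exception in both libraries, with 1 UMI in each.

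Genes of acinar stress and regeneration accompanied the enzymes, with 5 of 6 tested past the threshold in each library. Reg1, a secreted lectin, was at 17698 CPM with vehicle and 31480 CPM with takinib, Reg2 at 6189 and 13983 CPM, and Reg3b, induced in pancreatitis, at 11319 and 18712 CPM. Tff3 was the exception, with 3 and 1 UMIs. Of 17 genes on a list of acinar-to-ductal metaplasia, 7 were past the threshold on the higher side and 4 on the lower side in each library. With takinib, Krt19 and Tff1 among the higher 7 rest on 1 cell each. The lower 4 with takinib were Anxa1 (log2 ratio -2.43), Cd44 (-1.70), Muc6 (-1.51) and Muc5ac (-1.33, 0 UMIs). The share of all genes on the lower side was not counted. The comparison cells were of all types. With vehicle their macrophage markers stood at 21741 CPM and epithelial markers at 2592 CPM. With takinib their neutrophil markers stood at 47619 CPM and epithelial markers at 1772 CPM. For this list no comparison with epithelial cells alone was made, and the part of cell type in these differences was not tested. Clu, a stress chaperone, was at 18534 and 11370 CPM, Sox9, the ductal factor, at 298 and 114 CPM, and Krt19, a ductal keratin, at 1084 and 559 CPM (267 CPM without 1 takinib cell, against 236 CPM in takinib cells with under 10 enzyme UMIs). Cd44, a cell-surface receptor, was at 157 and 126 CPM, against 357 and 431 CPM in cells with under 10 enzyme UMIs. Tff1 was at 207 CPM with vehicle, below its other cells, and at 4570 CPM with takinib, of which 39.1 CPM remained without 1 cell, below its other cells too. Muc6, a gland mucin, gave 6 UMIs with vehicle and 2 with takinib.

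Markers of other cell types differed in level there. The islet hormones Ins1, Ins2, Gcg, Sst and Ppy were at 0 among 120859 UMIs of the vehicle's enzyme-rich cells and 175285 UMIs of those of the takinib library. Over all cells with at least 100 enzyme UMIs, the summed acinar markers other than the members were at 10618 CPM with vehicle and 32832 CPM with takinib, the macrophage markers (9 and 12 of 12 detected) at 1233 and 1579 CPM, and the islet markers (1 and 2 of 9) at 48.0 and 33.4 CPM. Neutrophil markers (1 and 9 of 9) were at 13.7 and 11369 CPM, against 928 and 47619 CPM in cells with under 10 enzyme UMIs of the same libraries. Some lists were higher than in those other cells. The 12 epithelial markers were at 6062 against 2592 CPM with vehicle and 6502 against 1772 CPM with takinib. The plasma markers (3 of 6 detected), which include Xbp1 of the acinar factor list, were at 897 against 584 CPM with vehicle. The erythroid markers were at 3933 against 2378 CPM with takinib. This rests on 1 takinib cell with 553 erythroid-marker UMIs per 10000, where no other had more than 8.63. That cell also had the most macrophage-marker UMIs, 151 per 10000, against at most 28.7 in the other takinib cells. With vehicle, the cells with 135, 301 and 505 enzyme UMIs had 181, 108 and 58.5 macrophage-marker UMIs per 10000, against at most 18.6 in the other vehicle cells. The vehicle cell with 148 enzyme UMIs was classed endothelial-like. All of these are among the enzyme-rich cells. The part of other cell types in the values was not tested.

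Choosing cells by Rbpjl in place of the enzymes gave a look that the enzyme counts did not fix. Vehicle cells with at least 2 Rbpjl UMIs numbered 16, and all 16 had Ctrb1, as did 21.7% of all kept vehicle cells. Not all 16 had at least 100 enzyme UMIs, since only 9 vehicle cells with that many had an Rbpjl UMI. In the 16 cells the 10 members summed to 34470 CPM, against 278 CPM in the 9844 cells with no Rbpjl. Takinib cells with at least 2 numbered 10, and all 10 had at least 100 enzyme UMIs, summing to 264994 CPM against 71.5 CPM in the 26750 cells without Rbpjl. Cel, not a member, was found in 11 of the 16 vehicle cells and 10 of the 10 takinib cells. Cela1 was at 135 CPM in the vehicle cells and 1695 CPM in the takinib cells so chosen, and Prss2 at 5728 and 27628 CPM. Cells with 1 or more Ptf1a UMIs were 7 and 6, with 18082 and 194605 CPM of enzymes. Bhlha15, which plasma cells also use, was less specific than Rbpjl at the same threshold of 1 or more UMIs. Cel was found in 14 of 28 vehicle and 12 of 40 takinib cells with Rbpjl, and in 1 of 25 and 3 of 86 with Bhlha15. The 25 vehicle cells with Bhlha15 had 874 CPM of enzymes, of which Cela1 gave 724 CPM. The 86 takinib cells with it had 11963 CPM of enzymes, but 3 of the 86 had a Prss2 UMI, and 8 had at least 10 enzyme UMIs.

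The cells whose enzyme UMIs were nearly all Ctrb1 differed between the libraries and within them. In the 6 takinib cells Ctrb1 stood at 12283 CPM, Rbpjl and Ptf1a gave 0 UMIs, and Krt19 was found in 6 of 6 at 2168 CPM. Clu was at 28440 CPM and Krt18, another epithelial keratin, at 4519 CPM, and 5 of the 6 lay in epithelial-like clusters. The remaining cell, with 171 enzyme UMIs, lay in the Ctrb1-led cluster. It had 24 Pnliprp1 and 8 Cel UMIs, and neutrophil markers at 1404 UMIs per 10000. Another of the 6, a cell of 4645 UMIs, was called a doublet. In the 2 vehicle cells Ctrb1 was at 34715 CPM, Rbpjl gave 6 UMIs over both, and Reg1 was at 46311 CPM. The vehicle cell with 280 enzyme UMIs also had 10 Cpa1, 11 Cel and 38 Clps UMIs. With so few cells these are descriptions of single cells.

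Outside the enzyme-rich cells Cela1 differed from the other 9 members, and many of its cells carried gastric-type mucous genes. Among epithelial-like cells, those with at least 5 Muc6 UMIs numbered 65 with vehicle and 106 with takinib. In them Cela1 stood at 792 and 722 CPM, against 36.5 and 59.9 CPM in the 1421 and 1650 epithelial-like cells with no Muc6. Prss2 was at 8.61 CPM with Muc6 (5 UMIs, 2.79 to 20.1 CPM) and 17.4 CPM without in the vehicle library, and at 2.54 CPM (4 UMIs) and 0.563 CPM (10 UMIs) in the takinib library, too few counts to give it a direction. A Cela1 UMI was found in 72.3% and 83.0% of the Muc6 cells, and in 27.7% and 43.4% after every cell was thinned to 1000 UMIs. In epithelial-like cells without Muc6 the shares were 14.5% and 27.5%, or 3.52% and 5.39% thinned. The median depths differed, at 8063 and 12726 UMIs with Muc6 against 4708 and 8395.5 without.

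The 1 cell in each library whose enzyme UMIs were nearly all Cela1 was of this type. The vehicle cell held 108 Cela1 UMIs with 218 of Muc6, 1479 of Tff2, a trefoil factor of mucous gland cells, and 677 of the gastrokine Gkn3. The takinib cell held 116 Cela1 UMIs with 340 of Muc6, 1531 of Tff2 and 947 of Gkn3. Both had Clps, at 104 and 322 UMIs, and neither had a UMI of Ctrb1 or Rbpjl. Among cells with 10 to 99 enzyme UMIs, Cela1 supplied at least 50% in 12 of 143 vehicle cells and 51 of 72 takinib cells, and 11 and 50 of these were epithelial-like. Their Tff2 level was 58441 and 45076 CPM. Without Cela1, cells with at least 10 enzyme UMIs numbered 144 with vehicle and 41 with takinib, in place of 161 and 95.

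**Figure D4:**
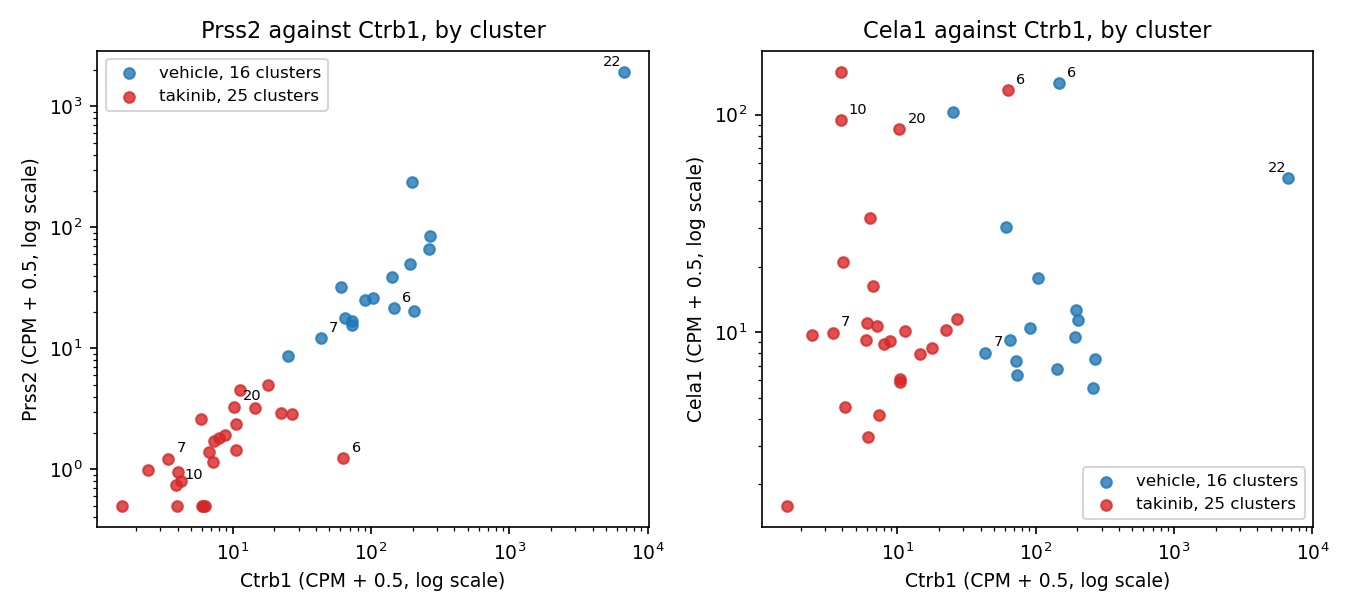
Level of Prss2 (left) and Cela1 (right) against Ctrb1, in CPM with 0.5 CPM added, on log axes, in the clusters with at least 50 cells, 16 of the vehicle library in blue and 25 of the takinib library in red. Over both libraries together Prss2 tends to be high where Ctrb1 is high, and every vehicle cluster lies above every takinib cluster in Prss2. Takinib cluster 6 departs from this, with the highest Ctrb1 of the takinib clusters (62.7 CPM) and Prss2 at 0.744 CPM. Cela1 follows another order: in epithelial-like cluster 6 it stands at 139 CPM with vehicle and 130 CPM with takinib.

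Across those 41 clusters of both libraries, the members other than Cela1 correlated pairwise with Pearson's r from 0.65 to 0.98, and Cela1 correlated with each of them at 0.02 to 0.18. The points share libraries and depth, so these are descriptions. 1 of the 41 points is the vehicle part of the Ctrb1-led cluster, which these enzymes themselves led. There the members summed to 10113 CPM, against 559 CPM in vehicle cluster 14, the next highest, so that point weighs heavily on Pearson's r. Pnlip was at 13.2 CPM there and at most 0.392 CPM in any other, so its values rest on that point. Correlations without it were not calculated. The takinib part of the Ctrb1-led cluster, with 26 cells, is not among them; Cela1 was at 1483 CPM in the takinib enzyme-rich cells, where it was high together with the others. The genes most like the mean of the members were Reg2 (0.98), Pnliprp1 (0.97), Cel (0.96), Prss3 and Ctrl (both 0.91), 2210010C04Rik, Gm2663 and Reg3a (all 0.90), and Rnase1 and Clps (both 0.87), out of 16362 genes. The same point enters these values, and by ranks (Spearman's rho) they ran lower, from 0.58 for Ctrl to 0.89 for Reg2. The genes most like Cela1 alone, looked up after its values were seen, were Car2 (0.84), a carbonic anhydrase, Hpn (0.81), a membrane protease, Abcc3 (0.76), a transporter, and Homer2 (0.75). In the takinib library Cela1 was also at 93.9 CPM in the 488 erythroid-like cells and at 156 CPM in an unnamed cluster of 123 cells led by Vcam1, Cd5l, Slc40a1 and Spic. In another unnamed cluster, led by Spink4, Mptx1 and Muc2, it was at 102 CPM in 105 vehicle cells and 32.9 CPM in 82 takinib cells.

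By cell class, low levels of enzymes were found in every class of the vehicle library. Classes were named from marker genes as X-like, on clusters made from both libraries together. The 9 members without Cela1 summed to 114 CPM in the 4771 macrophage-like cells, 139 CPM in the 1679 epithelial-like cells, and more in small or shallow classes: 545 CPM in the 261 neutrophil-like cells and 323 CPM in the 250 B-like cells. With takinib the same sum was 8.90 CPM in 7797 macrophage-like cells, 60.7 CPM in 2058 epithelial-like cells, 20.8 CPM in 11393 neutrophil-like cells and 16.7 CPM in 1512 B-like cells. The log2 ratio of takinib over vehicle was -2.71 in macrophage-like and -1.07 in epithelial-like cells. Macrophages are not known to make these enzymes, so the level in that class is the comparison used for the others; the part of free RNA in it was not tested.

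The share of cells with an enzyme UMI differed at matched depth as well. A UMI of any member was found in 29.6% of the vehicle's macrophage-like cells (median 3876 UMIs) and 11.1% of those with takinib (median 5952 UMIs), and in 11.3% and 2.17% after thinning to 1000 UMIs. In epithelial-like cells the shares were 40.2% and 37.4%, or 14.5% and 10.5% thinned, of which Cela1 supplied most with takinib. Prss2 in epithelial-like cells was at 16.4 CPM with vehicle, close to the 16.1 CPM of macrophage-like cells, and at 0.804 CPM with takinib, below the 1.19 CPM of macrophage-like cells. Cela1 stood above that level in both libraries, at 79.6 against 7.63 CPM with vehicle and 114 against 10.9 CPM with takinib. Ctrb1 was at 96.9 against 71.5 CPM with vehicle and 54.1 against 6.20 CPM with takinib. Try5 was at 11.4 against 10.9 CPM and 4.87 against 0.548 CPM, so both too stood above that level with takinib. Few cells carried much of the Ctrb1: single epithelial-like takinib cells held 198, 159, 127, 127 and 107 Ctrb1 UMIs. In 4 takinib cells with at least 10 but under 100 enzyme UMIs, trypsins supplied at least 50% of those UMIs. Of these 4 cells, 3 were epithelial-like. How the Try5 UMIs of epithelial-like cells were spread over single cells was not counted. Macrophage-like cells came mostly from cluster 1 with vehicle (3558 cells) and from clusters 4, 5 and 11 with takinib (2035, 2282 and 2043 cells); epithelial-like cells came mostly from cluster 6 in both.

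**Figure D5:**
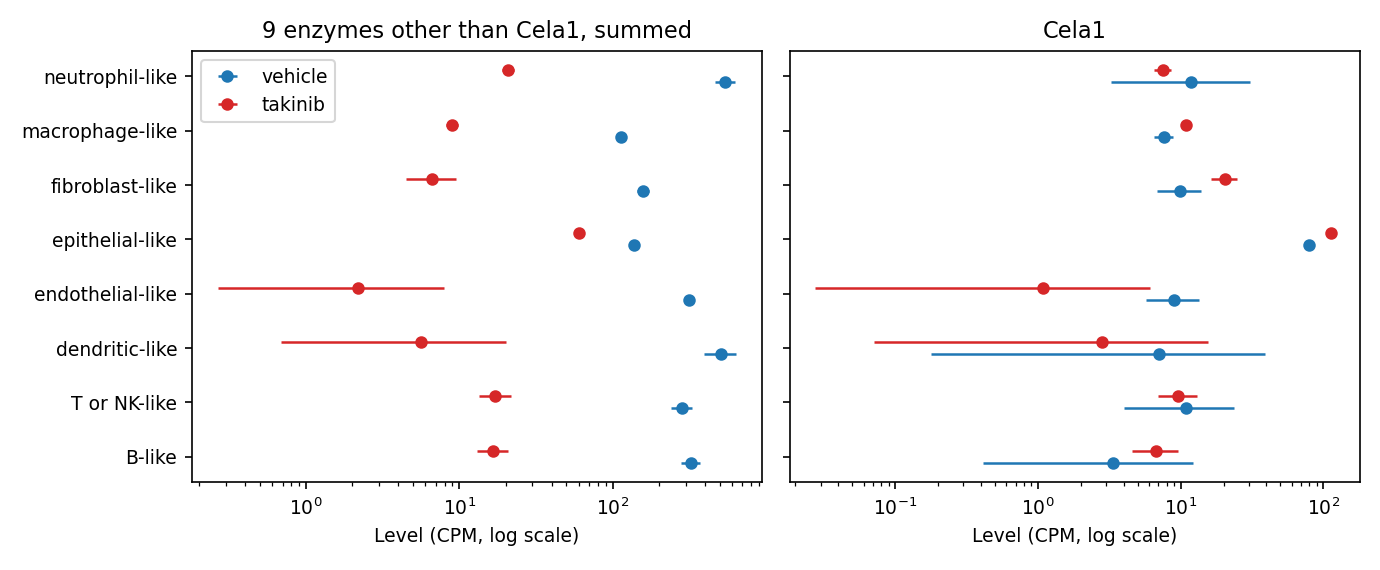
Level in CPM (log axis) of the 9 enzymes other than Cela1, summed (left), and of Cela1 (right) in each cell class that had 50 or more cells in both libraries, vehicle in blue and takinib in red, with exact 95% Poisson intervals. On the left every red point lies below its blue one; on the right the points of most classes lie closer together, and epithelial-like cells stand highest of the named classes plotted, at 79.6 and 114 CPM.

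The total over all 10 members stood higher in epithelial-like than in macrophage-like cells, with a log2 ratio of 0.79 with vehicle and 2.63 with takinib. Without Cela1 the ratio was 0.26 and 1.90. When clusters were made without the members and the other acinar genes, the vehicle ratio turned to -0.79 and the takinib ratio was 0.20, so the order of these classes depends on how the enzyme-bearing cells are assigned.

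The enzymes themselves led 1 cluster, whose top genes were Ctrb1, Prss2, Reg2, Cpa1, Try5, Pnliprp1, Clps, Cel, Cela2a and Sycn. It held 242 vehicle cells and 26 takinib cells, and it was given no cell type name because its vehicle cells carried macrophage markers at 34410 CPM, against 3609 CPM in its takinib cells. The median was 6 enzyme UMIs a cell with vehicle and 329.5 with takinib, and 15 and 17 of its cells had at least 100. The 159 vehicle cells in it with under 10 enzyme UMIs had macrophage markers at 45133 CPM, against 21741 CPM in all such kept vehicle cells. Clustered without acinar genes, 153 of the 242 became macrophage-like, 5 epithelial-like and 77 fell in unnamed clusters. The part of free RNA or of droplets with more than 1 cell in these values was not tested; of the 161 vehicle cells with at least 10 enzyme UMIs, 6 were called doublets.

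Enzyme-bearing vehicle cells came from more than 1 sex-linked type. Of the 18 vehicle cells with at least 100 enzyme UMIs, 10 had Y-linked transcripts without Xist, 1 had Xist without Y-linked transcripts and 7 had neither; of the 23 takinib cells, 19 had Xist. In kept vehicle cells with under 10 enzyme UMIs, the members summed to 165 CPM in Xist cells and 119 CPM in Y-linked cells. The Xist cells of the takinib library with under 10 enzyme UMIs were at 34.5 CPM. These sets are defined by the enzyme counts. The part of sex, of the mice behind each library and of free RNA in these values was not tested. Over all Xist cells without Y-linked transcripts, 1120 with vehicle and 15602 with takinib, the sum was 286 CPM and 404 CPM, the other way round from all kept cells (387 and 344 CPM); 1 of these vehicle cells and 19 of these takinib cells had at least 100 enzyme UMIs.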

How the data were processed

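Droplet single-cell RNA libraries of vehicle- and takinib-treated KPPC pancreatic tumours were analysed, 1 library a group, so no test was made. The authors deposited whole-number UMI counts per gene and barcode for each library, per the file headers written by Cell Ranger 4 for vehicle and 6.1.1 for takinib; the submitters' processing notes name Cell Ranger 2.1.1, STAR 2.0.4b and featureCounts 1.45, and the build mm10. The annotation is not given in the sources used here. The members and gene lists were chosen with earlier results of these data known.

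Cells were kept at 1000 or more UMIs, 500 or more genes and at most 20% mitochondrial UMIs. Doublets were kept; Scrublet, run in scanpy 1.11.5 at an expected rate of 6%, called 314 vehicle cells (3.18%) but 1 takinib cell, under 0.5%, so its own threshold did not work there and the alternative removed the 1621 highest-scoring takinib cells. Counts were summed over cells and given as CPM with exact 95% Poisson intervals (scipy 1.17.1), and shares with exact Clopper-Pearson intervals. Log2 ratios carry 10 CPM added to each side, which understates low genes; a gene was past the threshold at 50 counts in a pool and a log2 ratio beyond 1. Zeros are set at a floor of 3 counts. Both libraries were clustered together (2000 variable genes, 30 principal components, 15 neighbours, Leiden resolution 1), and classes were named from fixed markers by a scoring rule set after the data were seen. UMIs removed PCR copies, and intervals cover counting error only.

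Named genes are all members, the lists, and the 10 genes most like the members by Pearson's r over clusters of at least 50 cells. Ratios and intervals were tested on simulated data. Gene models came from GENCODE release M21 and promoters from RefSeq on GRCm38.p6. Alternatives changed the added CPM, the total, the filters, the thresholds, the depth, the free-RNA range and the clustering; leaving out Cela1, cells with under 10 enzyme UMIs, and the threshold of 100 UMIs were chosen after seeing the data, as were the 3 kinds of enzyme-bearing cells.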

Additional observations from a re-analysis of the deposited data

How the results depend on the processing

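No paired analysis was possible because each group has 1 library, and leaving out a replicate was not possible for the same reason. Of the alternative values for the sums, cell counts and class ratios, 58 moved beyond counting error, 1 reversed and 15 did not; of those for single members, 47 moved, 5 reversed and 38 did not. The cause was not tested unless the construction shows it.

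Over all barcodes the log2 ratio of takinib over vehicle (-1.38) stayed below 0: -1.40 with 1 CPM added, -1.28 with 50 CPM, -1.62 with mitochondrial, haemoglobin and neutrophil-marker UMIs out of the total, -3.16 without the 10 top barcodes of each library, -1.47 without Cela1, -0.41 at 1000 or more UMIs and -0.86 at 500 or more. In kept cells (-0.17) it was -1.67 without the 10 top cells, -0.20 without Cela1, -0.032 scaled to a median ratio of 0, -1.86 in cells with under 10 enzyme UMIs, -0.31 at 500 UMIs and 250 genes, -0.19 at 2000 UMIs and 1000 genes, -0.025 at 10% mitochondrial UMIs, -0.26 with no such limit and -1.09 thinned to 1000 UMIs. The near-equal sums of kept cells thus rest on 10 cells a library.

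For vehicle kept cells over free RNA (-2.02), the ratio was -1.92 with 50 CPM, -2.67 with the reduced total, -2.60 without the top 10, -2.10 without Cela1, -2.37 scaled to the median, -1.56, -1.01 and -1.98 with free RNA from 50 to under 200, 10 to under 100 and 500 to under 1000 UMIs, -1.89 and -2.09 at 500 and 2000 UMIs, and -2.14 and -1.93 at 10% and no mitochondrial limit. Cells with at least 10 enzyme UMIs with vehicle (161) numbered 136 at 2000 UMIs, 96 and 191 at 10% and no mitochondrial limit, 42 thinned, 430, 65 and 18 at thresholds of 5, 20 and 100 UMIs, and 40 at 1% of the UMIs of the cell. With takinib (95) they numbered 23 thinned, 216, 58 and 23 at 5, 20 and 100 UMIs, 23 at 1%, and 41 without Cela1.

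The log2 ratio of epithelial-like over macrophage-like cells with vehicle (0.79) was 0.97 thinned, 1.96 and 0.89 at Leiden resolutions 0.5 and 2, -0.79 clustered without acinar genes (reversed), 0.39 and 0.067 at 500 and 2000 UMIs, 0.52 and 0.061 at 10% and no mitochondrial limit, 0.38 without the top 10 cells and 0.26 without Cela1. With takinib (2.63) it was 5.61 and 2.87 at resolutions 0.5 and 2, 0.20 without acinar genes, 1.17 at 2000 UMIs, 2.79 at 10%, 2.24 without the top 10 and 1.90 without Cela1.

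Single members reversed in kept cells: Cela1 to -0.068 and Cpa1 to -0.54 when thinned, Cpa1 to -0.68 without the top 10 cells, and Cela3b to 0.047 and Ctrb1 to 0.11 at 10% mitochondrial UMIs. Pnlip, Ptf1a and Bhlha15 rest on few counts.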

Other observations

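With vehicle, some genes on the acinar secretory list had most of their UMIs outside the enzyme-rich cells. In kept cells Zg16, a zymogen granule lectin that goblet cells also make, was at 35.8 CPM with vehicle and 1.96 CPM with takinib (log2 ratio -1.94), and 8 of its 1573 vehicle UMIs were in enzyme-rich cells. Klk1, a kallikrein, was at 25.3 and 2.88 CPM (-1.46), with 11 of 1112 UMIs there, and Gatm, an enzyme of creatine synthesis, at 87.9 and 38.3 CPM (-1.02), with 7 of 3855. They were the 3 of 18 tested genes of that list past the threshold in kept cells, all lower with takinib, where 3.47% of 15751 genes were lower and 2.58% higher. With takinib, 192 of 259 Zg16 UMIs and 278 of 380 Klk1 UMIs were in enzyme-rich cells, and 11 of 5056 Gatm UMIs.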
